A study of Macaca mulatta and Mus musculus with 5 samples.

Results

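Cycling pro-B cells of the mouse meninges are described here: 211 cells out of 13933 mouse barcodes with at least 300 detected genes, and out of 34959 barcodes in all tables of the series. They were chosen by raw counts of unique molecular identifiers (UMIs, each standing for 1 captured RNA molecule): at least 2 of Dntt, at least 3 of Igll1, at least 2 of Cd79a, at least 1 of Mki67, and none of Cd3e or Siglech. The same gate without the Mki67 condition held 653 cells, so that the cycling cells were 32.3% of it (exact binomial 95% interval 28.7 to 36.0%) and 1.51% of all mouse cells (1.32 to 1.73%). The other 442 cells of the gate had no Mki67 UMI and are the group they are compared with. Since measured counts chose these cells, every difference between the groups below is a description without a test.

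The study profiled meningeal cells of mice, and meningeal and splenic cells of rhesus macaques, with droplet single-cell RNA sequencing of transcript 3′ ends. The mouse library pooled male C57BL/6 animals aged 2, 21 and 48 days whose cells carried hashtag antibodies. The hashtag counts were not used here, so no age can be given to a cell, and the whole mouse part is 1 sample. The sort is written with CD45 and CD11b, each followed by a dash that can be read as a minus sign or as a separator, and 30000 cells were loaded per channel. Cycling pro-B cells, Mki67-zero pro-B cells and the third group used below, Dntt-zero cycling cells, all came from this 1 library, so strain, sex and preparation were shared.

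B cells arise from progenitors that first recombine the immunoglobulin heavy chain genes. Pro-B cells are the stage at which the recombinase made of Rag1 and Rag2 cuts these genes, terminal deoxynucleotidyl transferase (Dntt) adds bases at the joints, and the Vpreb and Igll1 proteins wait to form the surrogate light chain that pairs with a new heavy chain. Pro-B cells also divide under the control of interleukin and growth factor receptors, and recombination and division are known to be kept apart in time, since the Rag2 protein is destroyed when cells enter DNA replication. Mki67 encodes a chromosome coat protein of dividing cells.

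The marker genes lie on several chromosomes, some of them as neighbours, and the rule genes Cd79a, Siglech and Mki67 share chromosome 7. In the GENCODE M21 annotation of GRCm38, the assembly that the submitters' notes call mm10, Dntt lies on chromosome 19 from 41029275 to 41059525 and Mki67 on chromosome 7 from 135689784 to 135716361. Igll1 lies on chromosome 16 from 16860671 to 16863985, close to Vpreb1 from 16868403 to 16870843 on the same strand. Vpreb2, a near-identical copy of Vpreb1, lies farther along chromosome 16 from 17980428 to 17981273, so reads could be split or lost between these copies and their separate values are uncertain. Rag2 and Rag1 are neighbours on opposite strands of chromosome 2, from 101624718 to 101632529 and from 101638282 to 101649501.

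The label was then looked at on its markers. The rule set the minimum counts of Dntt, Igll1, Cd79a and Mki67, so these counts are no check of the label. The members held a median of 21 Dntt UMIs (2 to 126), 25 Igll1 UMIs (3 to 83), 29 Cd79a UMIs (2 to 89) and 6 Mki67 UMIs (1 to 85). Vpreb1, which the rule did not use, had at least 2 UMIs in every member, with a median of 40 and a maximum of 110. Its level was 2122 CPM, which are UMIs of a gene per 1000000 summed UMIs of the group (exact Poisson 95% interval 2078 to 2167), in cycling pro-B cells, against 11.6 CPM (9.85 to 13.6) in 1429 cells with at least 2 Cd3e UMIs and no Cd79a UMI, which stand for the level that free RNA can give. The B-lineage genes Cd79b, Ebf1, Pax5 and Vpreb3 had 802, 2912, 257 and 2744 CPM in the members, against 54.4, 26.2, 7.93 and 57.2 CPM in the Cd3e-positive cells.

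Cells at the edge of the rule were looked at once. The 67 members with a single Mki67 UMI had 116 CPM of the topoisomerase Top2a, and the 442 cells just outside, with none, had 24.8 CPM. Rag1 stood at 437 CPM in the members with 1 Mki67 UMI and at 719 CPM in the cells without. Only 7 members sat at 2 Dntt UMIs, while 41 cells with 1 Dntt UMI met all other conditions, with a median of 22134 and 26823 UMIs per cell. Rag1 stood at 78.0 CPM in these 7 members and 44.3 CPM in the 41 cells, and Vpreb1 at 1050 and 797 CPM. All of these lay below the levels of the members as a whole. One cell each sat at 3 Igll1 and 2 Cd79a UMIs, and no cell lay just below either limit.

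Depth differed between the groups. Cycling pro-B cells had a median of 16959 UMIs (quartiles 11019 and 26098.5) and 4112 genes per cell, Mki67-zero pro-B cells 7114.5 UMIs (5873.25 and 9138) and 2585 genes, and Dntt-zero cycling cells 28908 UMIs and 4826 genes. Summed UMIs were 4090533, 3463260 and 11339929, out of 128091376 in the library. Median mitochondrial shares were 3.75, 4.46 and 4.43%, and the doublet caller Scrublet marked 2, 15 and 5 cells of these groups and 175 of 13933 in all. Of the mouse barcodes, 17, 17, 16 and 28 also occurred in the 4 macaque tables. Shares of cells with a UMI are given after every cell was thinned to 4000 UMIs, which left out 3, 19 and 1 cells, with the unthinned share beside them. Intervals cover counting error only, not differences between animals.

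How strongly the members cycled varied widely. The summed share of UMIs in 60 mitosis genes, whose products build the spindle and divide the chromosomes, ranged from 0.0349 to 4.53% of a member's UMIs with a median of 0.426%. The share in 45 DNA replication genes ranged from 0.0140 to 1.58% with a median of 0.333%. Ordered by Mki67 UMIs, the median mitosis share was 0.105% at 0 (442 cells), 0.127% at 1 (67 cells), 0.176% at 2 to 4 (32 cells) and 1.25% at 5 or more (112 cells). The median replication share was 0.108, 0.137, 0.352 and 0.513% in the same order. The medians of cells with 1 Mki67 UMI thus lay near those of cells with none, and both programmes were highest in the cells with at least 5.

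A limit of 0.4% for either share, set after the values were seen, shows the mixture. All 112 members with at least 5 Mki67 UMIs exceeded it for replication or mitosis genes, as did 18 of the 32 with 2 to 4 and 17 of the 67 with 1, against 8 of the 442 Mki67-zero cells. The remaining 64 members, 50 of them with a single Mki67 UMI, stayed below it for both, so the label "cycling" rests on few molecules in these cells. A UMI of Mki67 is also easier to catch in a deeper cell: median UMIs per cell were 7114.5, 8663, 15544.5 and 22559 over the same classes.

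**Figure D1:**
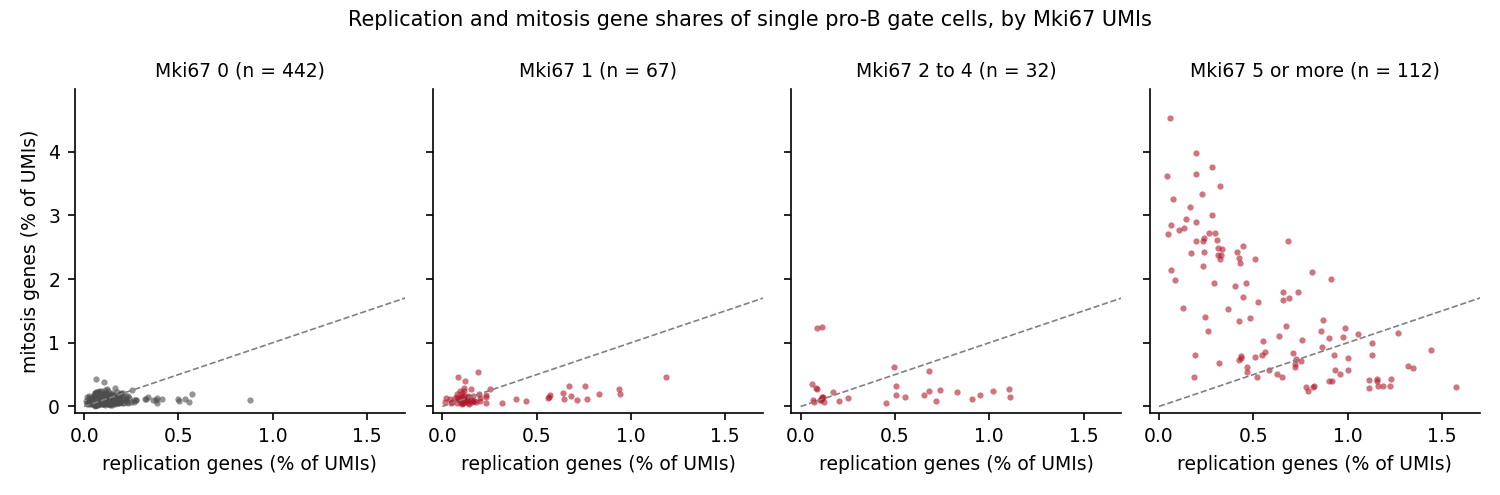
Each point is 1 cell of the pro-B gate, by its share of UMIs in replication genes (x axis, %) and in mitosis genes (y axis, %), in panels by Mki67 UMIs from 0 to 5 or more, with a dashed line where the shares are equal. The 112 cells with 5 or more Mki67 UMIs run from high mitosis shares, up to 4.53%, to high replication shares, while most cells with 0 or 1 stay near the origin.

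Among the 112 cells with at least 5 Mki67 UMIs, high shares of the programmes fell in different cells. Spearman's rho between mitosis and replication shares was -0.74 over these cells, which share 1 library and a fixed total per cell, and 0.20 over all 211 members. The mitosis share was the higher in 79 of the 112 and the replication share in 33. Of the 112, 15 had shares within 1.2-fold of each other, so the split is a cut through a continuous range. Replication-dependent histone transcripts took a median of 1.17% of UMIs in the cells with more mitosis and 0.409% in those with more replication transcripts. Histone transcripts are made for packing new DNA, mostly lack a poly(A) tail in dividing cells, and are then poorly caught by 3′-end chemistry.

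Pro-B transcripts were present on both sides of this split. Vpreb1 had a median of 42 UMIs per cell in the 79 cells with more mitosis transcripts and 42 in the 33 with more replication transcripts, and Igll1 29 and 29. Vpreb3 had medians of 61 and 45 UMIs and Dntt 30 and 25, in cells with medians of 22488 and 26792 UMIs in all. Rag2 reached 58.7 CPM (48.2 to 70.7) in the cells with more mitosis transcripts, against 28.5 CPM (18.5 to 42.1) in those with more replication transcripts, and was without a UMI in 31 of 79 and 19 of 33. Rag1 stood at 147 CPM (130 to 165) and 182 CPM (154 to 212), and was missing in 16 of 79 and 13 of 33 cells. Its medians per cell went the other way, with 3 and 2 UMIs, so the order of Rag1 depends on the measure. The cyclin Ccnb1, which drives entry into mitosis, had medians of 8 and 0 UMIs, and Pcna, the sliding clamp of replication, 5 and 23. Both belong to the lists that made the split, so their difference is no check of it.

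Across all genes, 7841 with a mean of at least 10 CPM in the pair of groups were compared between cycling and Mki67-zero pro-B cells, leaving out the 6 genes of the rule. Of these, 670 (8.54%) were at least 2-fold higher in cycling cells and 728 (9.28%) at least 2-fold lower, with a median log2 ratio of CPM of -0.17. This split moves with the scaling: trimmed-mean scaling gave 908 higher and 412 lower genes with a median of 0.05, and median-of-ratios scaling 944 and 393 with a median of 0.07. Those scalings add 0.22 and 0.24 to every log2 ratio below, which takes Ccnd3, Pold1 and Atm past 2-fold, turns the sign of H3f3a, and under both ends the 2-fold call of Cdkn1b, Xrcc4, Vpreb2, Vpreb3, Cd79b, Lyn, Foxo1, Erg, Aff3, Igf1r, Csf2rb, Il2rg and Jun, which are given below as lower. Weighting every cell equally gave 572 and 393. The rule itself contrasts Mki67, so that nothing is read here from these counts or from the share of list members against them.

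Nearly the whole machinery of DNA replication was higher in cycling pro-B cells, as the Mki67 rule implies. Of 45 replication genes, 42 were at least 2-fold higher and none was 2-fold lower, with a median log2 ratio of 2.34. Mcm5, a subunit of the replicative helicase, had 199.97 CPM (187 to 214) in cycling and 21.4 CPM (16.8 to 26.8) in Mki67-zero pro-B cells. Cdc6, which loads that helicase, had a log2 ratio of 5.60. Pcna stood at 467 and 81.4 CPM. The exceptions were Prim2, the large primase subunit, at 75.3 CPM in cycling and 122 CPM in Mki67-zero cells (log2 ratio -0.69), Gins4 (0.62) and Pold1 (0.84). Replication transcripts also appeared in some cells with little Mki67. In class sums, in which deep cells weigh more, Mcm5 had 21.4, 163, 239 and 203 CPM over the Mki67 classes from 0 to 5 or more. Ccnb1 had 9.24, 26.5, 31.1 and 286 CPM. Of the 67 cells with 1 Mki67 UMI, 15 passed the 0.4% limit for replication genes, and the median share of the 67 was 0.137%.

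Genes that supply DNA building blocks went with them. Of 27 nucleotide synthesis genes, 22 were 2-fold higher and 2 were 2-fold lower, with a median of 1.78. Tyms, which makes thymidylate, had 228 CPM in cycling and 8.95 CPM in Mki67-zero cells, a log2 ratio of 4.67, and Rrm2, the inducible subunit of ribonucleotide reductase, 325 and 18.2 CPM. The lower genes were Samhd1, which breaks down deoxynucleotides, at 19.6 and 50.5 CPM (log2 ratio -1.37), and Cmpk2, a mitochondrial nucleotide kinase also known as an interferon-induced gene, at 6.60 and 15.9 CPM (-1.27).

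Mitosis genes had the highest median of the lists compared. Of 59 compared, 57 were 2-fold higher in cycling cells and none 2-fold lower, with a median log2 ratio of 4.17. Hmmr, a spindle protein that led the genes named by the fixed rule, had 560 UMIs in the 211 cycling cells and 5 in the 442 Mki67-zero cells, 137 CPM (126 to 149) against 1.44 CPM (0.469 to 3.37). The kinase Ttk, a sensor of chromosome attachment, had 137 UMIs in cycling cells and none in Mki67-zero cells, so that it was at least 38.7-fold higher, taking 3 counts over the group as the floor. Tpx2, Pbk, Esco2, Cdk1, Nusap1, Cdca8, Kif11, Ccna2, Birc5 and Kif15, together with the replication clamp partner Pclaf, made up the rest of the 12 highest CPM ratios by that rule, with log2 ratios from 5.10 to 5.82. Cdc25b (-0.68), a phosphatase that activates mitotic kinases, and Pttg1 (-0.32), which guards sister chromatid separation, were the exceptions, at 136 and 41.3 CPM in cycling and 218 and 51.7 CPM in Mki67-zero cells.

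Histone and chromatin genes were higher as well. Of 67 replication-dependent histone genes, 40 passed the level filter, of which 36 were 2-fold higher and none 2-fold lower (median 3.20). Since several histone genes are near-identical copies, single values are uncertain. Hist1h2ap had 1235 CPM in cycling and 54.6 CPM in Mki67-zero cells. Of 27 chromatin and tubulin genes, 21 were 2-fold higher (median 1.95). Stmn1, which loosens microtubules, had 1786 CPM in cycling and 157 CPM in Mki67-zero cells, and Hmgb2, a DNA-bending chromatin protein, 5129 and 818 CPM. H3f3a and H3f3b, histone genes that are read outside replication too, had log2 ratios of -0.06 and -0.29.

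**Figure D2:**
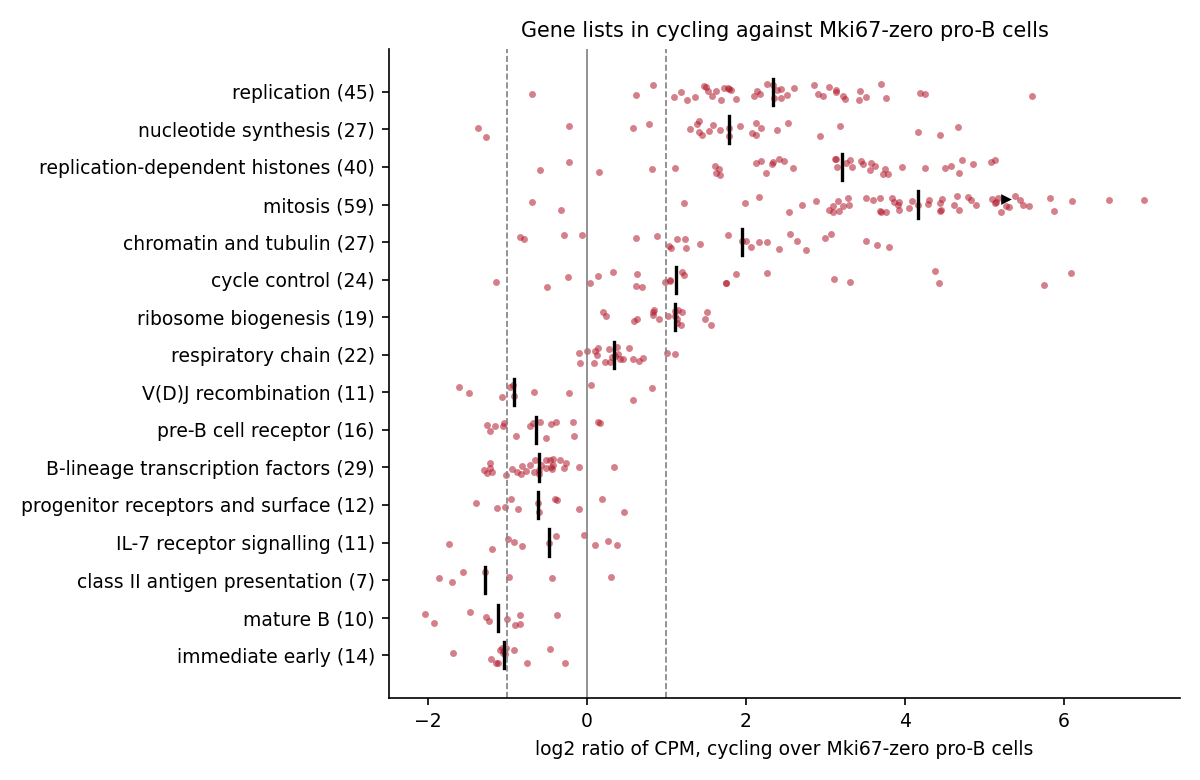
Each point is 1 gene of a list (number of genes in brackets), placed by its log2 ratio of CPM in cycling over Mki67-zero pro-B cells on the x axis. Black bars are list medians, dashed lines mark 2-fold, and the black triangle is Ttk, a lower bound because it had no UMI in Mki67-zero cells; replication, histone and mitosis lists lie to the right with medians of 2.34, 3.20 and 4.17, and the developmental lists mostly left of 0.

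Regulators of the cell cycle divided. Of 24 compared, 14 were 2-fold higher and 1 was 2-fold lower (median 1.12). The E2F family repressors E2f8 and E2f7 had 58.7 and 31.1 CPM in cycling against 0.866 and 0.578 CPM in Mki67-zero cells, and the G1/S cyclins Ccne1 and Ccne2 35.9 and 37.2 against 1.73 and 1.73 CPM. Ccnd3, the D-type cyclin that B-cell progenitors depend on, had 496 CPM (474 to 518) in cycling and 250 CPM (233 to 267) in Mki67-zero cells, just short of 2-fold with a log2 ratio of 0.99. Its partner kinases Cdk4 and Cdk6 had log2 ratios of 1.19 and 0.62. Cdkn1b, the inhibitor that holds cells in quiescence, was the gene on the low side, at 150 CPM (139 to 163) in cycling and 331 CPM (312 to 351) in Mki67-zero cells, a log2 ratio of -1.14. Myc had 22.5 and 21.9 CPM. Myb, needed for pro-B cell survival, had 514 and 728 CPM.

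Genes of cell growth differed less. Of 19 ribosome biogenesis genes, 11 were 2-fold higher in cycling cells and none 2-fold lower (median 1.11), among them Ncl, which processes ribosomal RNA, at 1451 and 664 CPM, and Fbl, which methylates it, at 254 and 111 CPM. Of 22 respiratory chain genes, 2 were 2-fold higher, Cycs (1.11) and Atp5g1 (1.01), with a list median of 0.34. In glycolysis, 3 of 13 (6 under either other scaling) were 2-fold higher: Ldha (1.45), Gapdh (1.26, with known processed copies in the genome) and Slc16a1 (1.11). Of 81 ribosomal protein genes, none was 2-fold higher and 1 was 2-fold lower (median 0.14).

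Genes of the pro-B programme took a smaller share of RNA in cycling cells. Rag1, the catalytic recombinase subunit, had 236 CPM (221 to 252) in cycling and 719 CPM (691 to 748) in Mki67-zero pro-B cells, 3.04-fold lower. After thinning to 4000 UMIs, 53.8% (46.8 to 60.8%) of cycling and 84.4% (80.6 to 87.7%) of Mki67-zero cells had a Rag1 UMI, against 2.44% (1.70 to 3.39%) of Cd3e-positive cells. Unthinned shares were 79.6, 93.2 and 4.20%. Over the Mki67 classes from 0 to 5 or more, Rag1 stepped down through 719, 437, 340 and 158 CPM. Deep cells weigh more in these sums, and mean Rag1 UMIs per cell of the same classes are given below. Rag2 had 57.9 CPM (50.8 to 65.8) in cycling and 113 CPM (103 to 125) in Mki67-zero cells, a log2 ratio of -0.97. Of the 11 V(D)J recombination genes compared, 3 were 2-fold lower and none higher (median -0.92). The others past 2-fold were the end-joining factors Xrcc6, with 245 and 682 CPM (-1.48), and Xrcc4, with 14.9 and 31.2 CPM (-1.06). The kinases Prkdc (0.58) and Atm (0.83), which act in repair of breaks of any origin, were higher in cycling cells, short of 2-fold.

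The surrogate light chain genes had similar ratios to each other. Vpreb1 had 2122 CPM in cycling and 5042 CPM (4968 to 5117) in Mki67-zero cells, a log2 ratio of -1.25 (-1.29 to -1.21), with Vpreb2 at 209 and 483 CPM (-1.21) and Vpreb3 at 2744 and 6090 CPM (-1.15). Igll1, a gene of the rule, had 1379 and 3065 CPM. Among 16 pre-B cell receptor genes, 5 were 2-fold lower and none higher (median -0.63): these Vpreb genes, the receptor subunit Cd79b (802 and 1649 CPM) and the kinase Lyn (66.5 and 138 CPM). Under either other scaling 1 of the 16, Vpreb1, was 2-fold lower, with list medians of -0.41 and -0.39. The adaptor Blnk (-0.52) and the kinase Syk (-0.89) were lower by less, while Blk (0.16) and Plcg2 (0.14) had ratios near 1. Ighm, the heavy chain of the first receptor, had 1837 CPM (1796 to 1879) in cycling and 2665 CPM (2611 to 2720) in Mki67-zero cells, against 268 CPM in Cd3e-positive cells. Igkc, the kappa light chain, had 219 and 496 CPM. The Cd3e-positive cells had 213 CPM of Igkc, close to the level in cycling cells. Median UMIs per cell were 8122 in Cd3e-positive and 16959 in cycling cells, and the part of free RNA in Igkc was not tested.

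Counted per cell instead of as CPM, most genes were higher in cycling cells, with a median log2 ratio of 1.14. Vpreb1, Vpreb2, Xrcc6, Igll1, Rag1 and Rag2, which had low CPM ratios, differed by less than 2-fold. Cycling cells had a mean of 19386 UMIs and Mki67-zero cells 7835, 2.47-fold fewer, and on the scale of mean UMIs per cell 331 of the 7841 genes (4.22%) were lower in cycling cells. Vpreb1 averaged 41.1 UMIs per cycling cell and 39.5 per Mki67-zero cell, Vpreb2 4.05 and 3.78, Xrcc6 4.75 and 5.34, and Igll1 26.7 and 24.0. Rag2 averaged 1.12 and 0.889 UMIs per cell and Rag1 4.58 and 5.63. Over the Mki67 classes from 0 to 5 or more, mean Rag1 UMIs per cell were 5.63, 5.16, 5.81 and 3.88, and Vpreb1 39.5, 38.1, 40.7 and 43.1. Genes with more UMIs per cell in cycling cells included Ighm, with 35.6 and 20.9, and Dntt, with 25.6 and 15.6. Whether UMIs per cell follow cell size or capture was not tested.

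**Figure D3:**
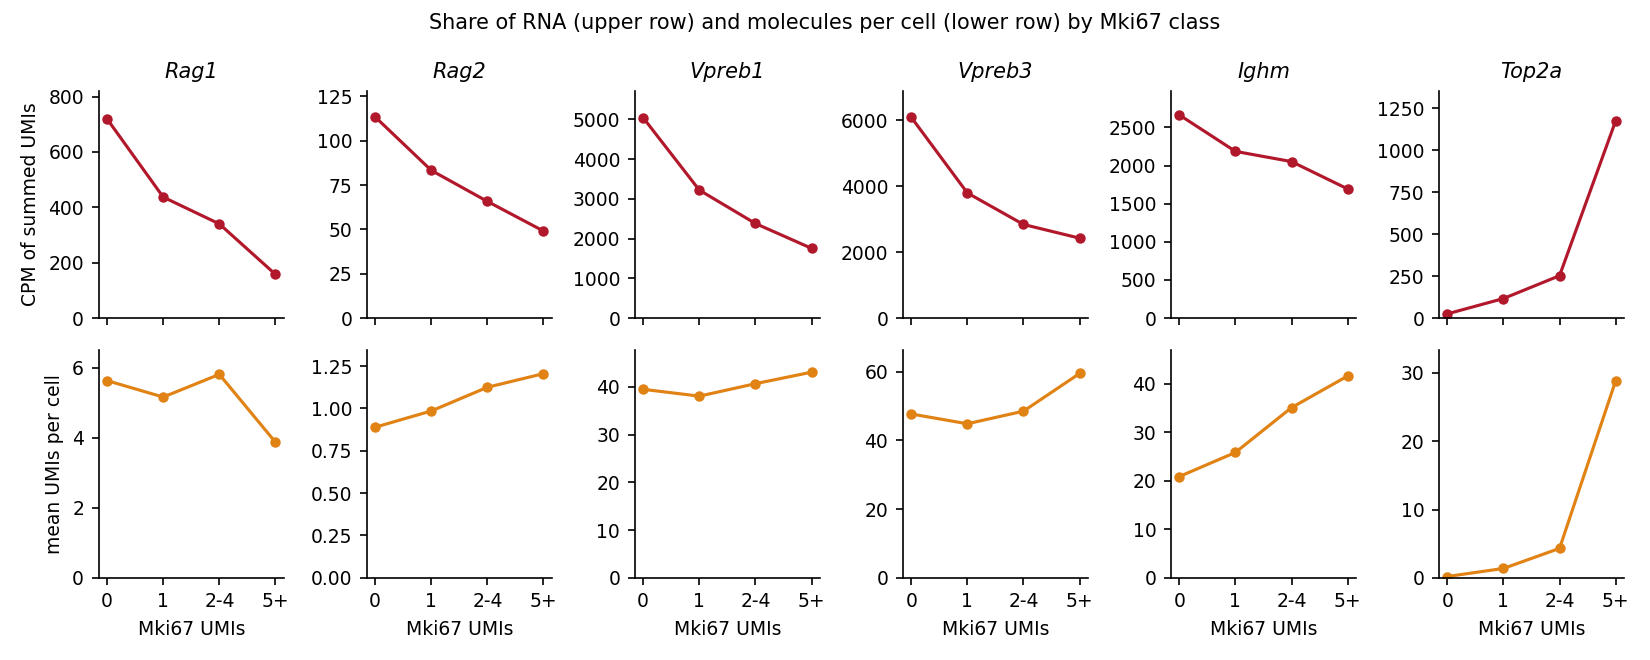
Upper row, CPM of summed UMIs, and lower row, mean UMIs per cell, of Rag1, Rag2, Vpreb1, Vpreb3, Ighm and Top2a in pro-B gate cells by Mki67 UMIs (0, 1, 2 to 4, 5 or more), each axis starting at 0. CPM of the 5 developmental genes steps down over the classes, while UMIs per cell of Vpreb1 stay between 38.1 and 43.1; Top2a climbs on both scales.

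Transcription factors of the B lineage had lower shares in cycling cells with few past 2-fold. Of 29, 6 were 2-fold lower and none higher, with a median of -0.60, and 28 had a ratio below 1. Ebf1, the factor that sets B-cell identity, had 2912 CPM (2860 to 2965) in cycling and 5572 CPM (5494 to 5651) in Mki67-zero cells, a log2 ratio of -0.94. Pax5, which keeps that identity, had 257 and 388 CPM. Those past 2-fold were Foxo1 (128 and 292 CPM), a factor that switches on the Rag genes, Spib (66.0 and 161), Erg (37.4 and 86.9), Gfi1 (18.6 and 43.3), Id2 (11.98 and 28.6) and Aff3 (79.2 and 160). Trimmed-mean scaling left 3 of these past 2-fold, Spib, Gfi1 and Id2, and median-of-ratios scaling 2, Spib and Id2.

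Receptors and surface proteins of progenitors had a median log2 ratio of -0.61, close to that of the transcription factors. Il7r, the receptor chain for the main pro-B growth factor, had 276 CPM (260 to 292) in cycling and 356 CPM (336 to 377) in Mki67-zero cells, a log2 ratio of -0.37, and Kit, the stem cell factor receptor, 25.2 CPM (20.5 to 30.5) and 45.6 CPM (38.8 to 53.3). Cd24a, a surface protein used to stage B-cell precursors, was higher in cycling cells with 873 and 629 CPM (0.47). Of 12 genes compared, 3 were 2-fold lower, Cd72, Igf1r and Csf2rb, of which Cd72 alone stayed so under the other scalings. Cd34 had no UMI in cycling and 1 in Mki67-zero cells. In interleukin signalling, Il2rg, the shared receptor chain, had 41.1 and 93.5 CPM, Socs3 4.89 and 16.2 CPM, and Pim1, a kinase gene downstream of the receptor, 299 and 389 CPM. Of the 11 genes of that list, 2 were 2-fold lower and none 2-fold higher (median -0.48). The 3 with a ratio above 1 were Stat5a (0.38), Ptpn2 (0.27) and Socs2 (0.11).

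Genes tied to rest, stimulation and later stages also took smaller shares in cycling cells. Of 14 immediate early genes, which respond within minutes to stimulation or handling, 10 were 2-fold lower and none higher (median -1.04), for example Jun at 412 and 865 CPM and Egr1 at 26.9 and 86.0 CPM. Under either other scaling 1 of the 14, Egr1, was 2-fold lower, with list medians of -0.83 and -0.80. Of 10 genes of mature B cells 6, and of 7 class II antigen presentation genes 4, were 2-fold lower, with Cd74 at 51.1 and 165 CPM and H2-Ob at 63.6 and 187 CPM. H2-Ab1 (102 and 82.9 CPM) was not lower. Btg2, an inhibitor of proliferation, had 188 and 498 CPM, and Trp53inp1, a stress response gene, 109 and 260 CPM. By contrast Chek1, Brca1, Bard1 and Exo1 of the DNA damage list, which act at replication forks, had log2 ratios of 3.16, 3.58, 3.48 and 3.96, and Trp53 had 184 and 125 CPM.

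The 12 lowest ratios by the fixed rule were mostly of genes outside the lists. Fcrl6, an Fc receptor-like gene, had 15.6 CPM in cycling and 132 CPM in Mki67-zero cells (log2 ratio -3.07), and took 131.7, 31.6, 27.4 and 8.72 CPM over the Mki67 classes. Speer2, Cyp4f18, Tcp11l2, the histone demethylases Kdm5b and Kdm7a, the lambda constant gene Iglc2, the selenoprotein gene Selenom, Mast4, the lymphotoxin gene Ltb, Ankrd33b and Pqlc3 had log2 ratios from -2.90 to -2.01. Fcrl6 was also lower per cell, with 0.303 UMIs per cycling and 1.03 per Mki67-zero cell, as was Selenom with 1.34 and 2.44.

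**Figure D4:**
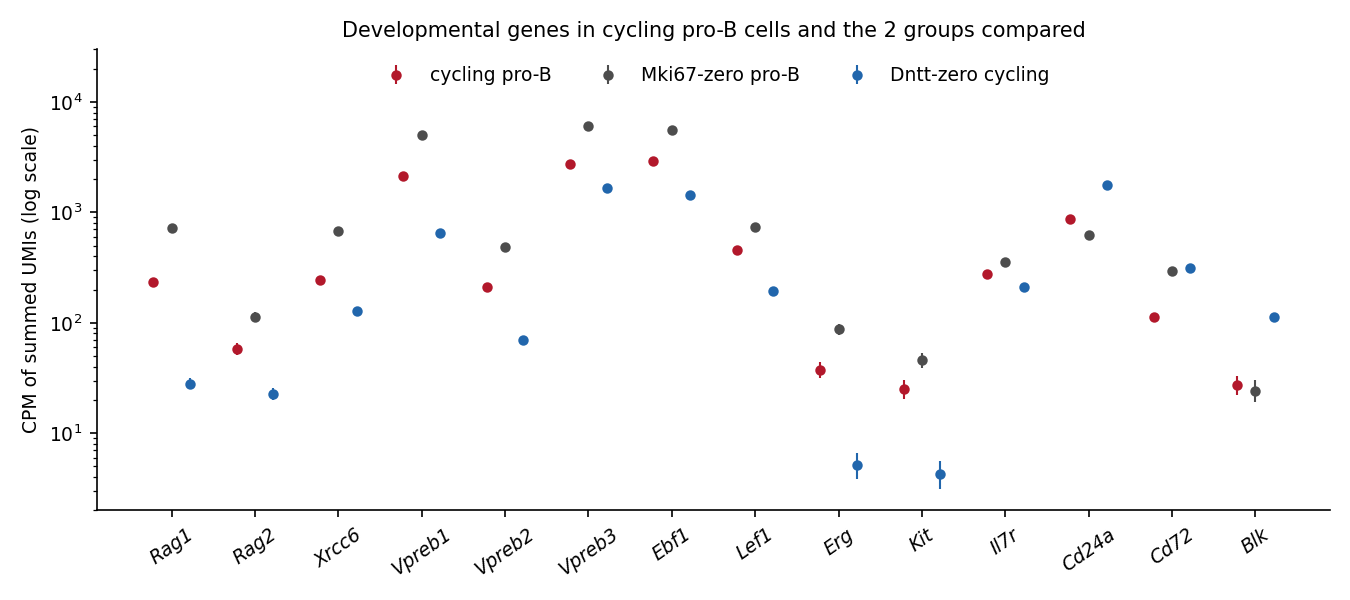
CPM of summed UMIs (log scale) of 14 developmental genes in cycling pro-B (red), Mki67-zero pro-B (grey) and Dntt-zero cycling cells (blue), with exact Poisson 95% intervals, which are often smaller than the points. Rag, Vpreb, Ebf1, Erg and Kit levels of cycling pro-B cells lie below those of Mki67-zero pro-B cells and above those of Dntt-zero cycling cells, while Cd24a and Blk are highest in the last.

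The members were also compared with 355 Dntt-zero cycling cells, which met all other conditions of the rule with no Dntt UMI. The groups differ by a gene of the rule, so this too is a description, and both comparisons share the 211 members. Of 7386 genes with a mean of at least 10 CPM, 389 (5.27%) were 2-fold higher in cycling pro-B cells and 52 (0.704%) 2-fold lower, with a median log2 ratio of 0.13. Trimmed-mean scaling gave 267 higher and 92 lower genes (median -0.07) and median-of-ratios scaling 259 and 97 (median -0.08). Thinning every cell to 4000 UMIs gave 711 and 156. The median Dntt-zero cycling cell was deeper, which makes a count of 0 a stricter condition there. The cycling state was not matched: 64 of 211 members and 30 of 355 Dntt-zero cycling cells stayed below the 0.4% limit for both programmes. The part of this in the differences below was not tested. Nor was the part of animal age, since ages were pooled and no age can be given to a cell.

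Cell by cell, the members had lower shares of cycle transcripts than the Dntt-zero cycling cells. Median replication shares were 0.333% in cycling pro-B and 0.690% in Dntt-zero cycling cells, median mitosis shares 0.426 and 0.694%, and 147 of 211 members passed the 0.4% limit for either programme, against 325 of 355 Dntt-zero cycling cells. In the summed counts, in which deep cells weigh more, none of 45 replication, 60 mitosis or 26 nucleotide synthesis genes differed by 2-fold either way, with list medians of -0.33, 0.11 and -0.28, of which the mitosis median turns negative under both other scalings. Mki67 itself had 661 CPM in cycling pro-B and 654 CPM in Dntt-zero cycling cells, Top2a 846 and 904 CPM, and Ccnb1 201 and 148 CPM. The exceptions in the cycle control list were the inhibitors Cdkn1a, with 50.1 and 17.4 CPM (log2 ratio 1.53), and Cdkn1b, with 150 and 67.6 CPM (1.15), which falls short of 2-fold under both other scalings. The linker histone genes H1fx (1.96) and H1f0 (1.05) and the histone Hist1h2bf (1.01) also passed 2-fold, of which H1fx alone did so under the other scalings. Ribosomal protein genes took 24.97% of summed UMIs in cycling pro-B cells and 30.3% in Dntt-zero cycling cells, with a list median of -0.27.

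The recombinase genes Rag1 and Rag2 were higher in cycling pro-B cells, while the other recombination genes went either way. Rag1 had 236 CPM in cycling pro-B cells and 28.0 CPM (25.04 to 31.3) in Dntt-zero cycling cells, 8.42-fold higher. Its thinned share was 53.8% in cycling pro-B and 12.7% (9.43 to 16.6%) in Dntt-zero cycling cells, and the unthinned shares were 79.6 and 29.6%. Rag2 had 57.9 and 22.8 CPM (log2 ratio 1.34). Of 12 V(D)J genes, 2 were 2-fold higher, these recombinase subunits, and 2 were lower: Polm, a joining polymerase (-1.34), and Xrcc5 (-1.05), the partner of Xrcc6 (0.95). Vpreb1 had 2122 and 654 CPM (1.70) and Vpreb2 209 and 70.3 CPM (1.57), and Blnk 576 and 205 CPM (1.495). Ighm was the other way, with 1837 and 2349 CPM (-0.35), and Igkc had 219 and 639 CPM (-1.55), against 213 CPM in Cd3e-positive cells.

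Among transcription factors, 7 of 29 were 2-fold higher in cycling pro-B cells and 1 lower (median 0.20). Erg, a factor of stem and progenitor cells, had 37.4 and 5.11 CPM (2.87), Etv6 49.9 and 17.7 CPM (1.49), Tcf4 354 and 144 CPM (1.30), Lef1 453 and 193 CPM (1.23) and Bcl11a 160 and 75.2 CPM (1.09). Ebf1 and Foxo1 stood just past 2-fold with 1.03 and 1.03. Ikzf3, which rises in pre-B cells, was the lower one, with 9.29 and 55.03 CPM (-2.57). Pax5 had 257 CPM in cycling pro-B and 254 CPM in Dntt-zero cycling cells. Under trimmed-mean scaling every ratio in this comparison is 0.20 lower on the log2 scale, which takes Ebf1, Foxo1 and Bcl11a below 2-fold and makes the counts 4 higher and 3 lower. Median-of-ratios scaling gave 4 and 4, with a list median of -0.01.

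Progenitor receptors and surface proteins went both ways, with 3 of 12 at least 2-fold higher and 3 at least 2-fold lower. Kit had 25.2 CPM (20.5 to 30.5) in cycling pro-B and 4.23 CPM (3.12 to 5.61) in Dntt-zero cycling cells (2.57), Bst1 84.6 and 29.1 CPM (1.54), and Spn, the surface protein CD43 used to sort pro-B cells, 64.1 and 31.3 CPM (1.03), the last short of 2-fold under both other scalings. Il7r had 276 and 210 CPM (0.39). Lower in cycling pro-B cells were Cd72 (112 and 312 CPM), Enpep, the surface marker BP-1 (5.13 and 17.6 CPM), and Cd24a (873 and 1776 CPM). Immediate early genes were higher here, 7 of 14 past 2-fold (4 under either other scaling) with a median of 1.03, with Jun at 412 and 122 CPM.

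**Figure D5:**
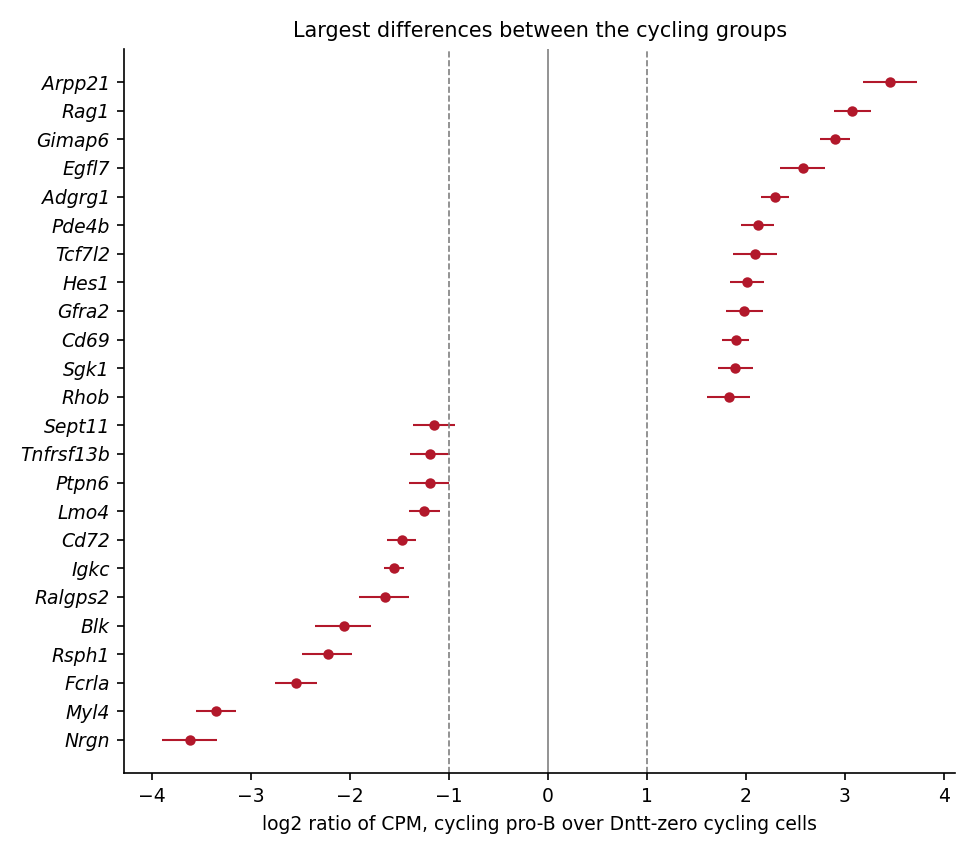
Log2 ratio of CPM (x axis) in cycling pro-B over Dntt-zero cycling cells of the 12 highest and the 12 lowest genes by the fixed rule, with exact 95% intervals for counting error and dashed lines at 2-fold. Arpp21 is highest at 3.45 and Nrgn lowest at -3.61.

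The highest ratios besides Rag1 were those of Arpp21, an RNA-binding protein gene, with 136 CPM in cycling pro-B and 12.4 CPM in Dntt-zero cycling cells (3.45), Gimap6, a lymphocyte GTPase (2.90), Egfl7, a secreted factor of vessels and progenitors (2.57), the adhesion receptor Adgrg1 (2.30), Pde4b, Tcf7l2, the Notch target Hes1, Gfra2, Cd69, Sgk1 and Rhob (1.83). The lowest ratios were those of Nrgn, a calmodulin-binding protein, with 27.4 and 334 CPM (-3.61), Myl4, a myosin light chain, with 52.8 and 537 CPM (-3.35), Fcrla (-2.54), Rsph1 (-2.22), the B-cell kinase Blk (-2.06), Ralgps2, Igkc, Cd72, Lmo4, the phosphatase Ptpn6, Tnfrsf13b and Sept11 (-1.15). Nrgn and Myl4 reached 70.4 and 87.0% of Dntt-zero cycling cells unthinned and 15.6 and 37.4% of cycling pro-B cells. After thinning they were in 7.21 and 13.0% of cycling pro-B cells, 54.5 and 71.2% of Dntt-zero cycling cells, and 2.87 and 4.16% of Cd3e-positive cells.

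Genes of other cell types were measured as sums over marker lists. The 8 T cell markers besides Cd3e summed to 46.2 CPM in cycling and 64.1 CPM in Mki67-zero pro-B cells, against 5467 CPM in Cd3e-positive cells, and Cd4 had no UMI in cycling cells. The 6 NK markers summed to 19.8 and 42.2 CPM with Ncr1 at 0 in cycling cells, against 1247 CPM in Cd3e-positive cells. The 7 erythroid markers summed to 39.4 and 73.6 CPM with Gata1 at 0 in cycling cells, against 1933 CPM, and 5 basophil markers to 2.69 and 3.18 CPM, against 34.7 CPM. The 6 stroma and vessel markers summed to 61.9 and 96.7 CPM, from Pecam1 and Kdr, with Col1a1, Col1a2, Dcn and Cldn5 at 0 in both. That is above the 31.6 CPM of Cd3e-positive cells, and Pecam1 gave 60.9 and 92.1 CPM of it. The 5 plasmacytoid dendritic markers summed to 179 and 216 CPM, against 389 CPM in Cd3e-positive cells, and 4 plasma cell markers to 59.2 and 83.7 CPM, against 112 CPM. The 9 myeloid markers summed to 47.4 and 62.4 CPM with S100a8 at 0 in both, against 64.8 CPM in Cd3e-positive cells, of which Lyz2 gave 42.0, 52.0 and 14.7 CPM. In the Cd3e-positive group, 1 cell held 529 of the 842 myeloid UMIs. For erythroid markers 1 cell held 15146 of 25099 UMIs there, and for basophil markers 1 cell held 395 of 450. The Cd3e-positive values of these lists thus rest largely on single cells. The part of transcripts of other cell types in the differences above was not tested.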

How the data were processed

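Mouse meningeal cells were profiled in 1 droplet library, and the authors deposited a table of raw UMI counts per gene and barcode, with Cell Ranger and the build mm10 named per the submitters' processing notes. No version of it was found in the sources used. The library held 128091376 UMIs over 13947 barcodes (median 6309) and 31017 genes. The members and gene lists were chosen with earlier results of these data known. UMIs were summed over each group's cells and divided by their total (CPM). Genes with a mean of at least 10 CPM in the groups compared were called at 2-fold, with no test, since there is 1 library. Genes named beyond the lists were the 12 highest and 12 lowest ratios among those with a mean of at least 50 CPM and at least 10 UMIs in the higher group, leaving out the 6 genes of the gate, variable segments and predicted genes. Against a group without UMIs, 3 counts over the group were the floor. Poisson and binomial (Clopper-Pearson) 95% intervals are exact and cover counting error only. Doublets were marked with Scrublet (scanpy 1.11.5, expected rate 0.05) and kept, and are left out in an alternative. Trimmed-mean factors came from edgeR 4.0.16 in R 4.3.3. The comparison code was checked on simulated counts with 200 changed genes. Alternatives covered thinning to 4000 UMIs, equal weights per cell, stricter Mki67 and Dntt limits, mitochondrial share, doublets, the deepest cells, scaling, the level filter and a stricter comparison group. The limits of 0.4% and 1.2-fold were set after the values were seen. Hashtag assignments and macaque expression were not used here.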

Additional observations from a re-analysis of the deposited data

How the results depend on the processing

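All values come from 1 library, so differences between animals and ages cannot be told apart from differences between cells, and the depth of the groups differed. No paired analysis was possible because the hashtag assignments that could tie cells to animals were not used here and the cells carry no replicate number. Requiring at least 3 Mki67 UMIs left 127 cycling cells (19.4% of the gate), and thinning before the gate left 117 (20.8%). Against Mki67-zero cells, genes 2-fold lower numbered 393 with cells weighted equally, 412 with trimmed-mean and 393 with median-of-ratios scaling. Thinning gave 657 higher and 594 lower genes, of which 543 and 376 were among the 670 and 728 called without it. With equal weights, 557 higher and 342 lower genes were among those. A mean of at least 50 CPM left 273 higher and 239 lower genes, and no filter gave 1212 and 2095. Against Dntt-zero cycling cells, thinning gave 711 higher and 156 lower genes, trimmed-mean scaling 92 lower, median-of-ratios scaling 259 and 97, at least 50 CPM 89 and 16, and no filter 2179 and 399. Fewer or more genes are compared under the level filters. The cause of the other shifts was not tested. Of the named genes past 2-fold, Hist1h2bf against Dntt-zero cycling cells was the 1 whose sign turned, with a log2 ratio of -0.23 after thinning.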

Other observations

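A few genes outside the pro-B and cycle programmes also set cycling pro-B cells apart from Dntt-zero cycling cells. The interferon-inducible membrane gene Ifitm3 had 54.8 CPM in cycling pro-B, 77.7 CPM in Mki67-zero pro-B and 4.23 CPM in Dntt-zero cycling cells, against 21.3 CPM in Cd3e-positive cells. After thinning it had a UMI in 17.8% of cycling pro-B, 21.99% of Mki67-zero pro-B, 1.13% of Dntt-zero cycling and 2.73% of Cd3e-positive cells (unthinned 44.5, 37.1, 6.48 and 3.92%). Of 5 type I interferon genes compared with Dntt-zero cycling cells, 2 were 2-fold higher, Ifitm3 and Ifi203 (log2 ratio 1.06, short of 2-fold under both other scalings), and none lower. The lysozyme gene Lyz2, a marker of myeloid cells, had 42.0 CPM in cycling pro-B, 52.0 CPM in Mki67-zero pro-B, 2.20 CPM in Dntt-zero cycling and 14.7 CPM in Cd3e-positive cells, with at most 6 UMIs in 1 member. The other 8 myeloid markers had few UMIs in the members, with S100a8 and C1qa at 0.

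Trafficking genes divided in the same comparison: S1pr4, a receptor for a lipid that guides lymphocytes, had 84.3 CPM in cycling pro-B and 35.1 CPM in Dntt-zero cycling cells and was 2-fold higher, and Ccr7, a lymph node homing receptor, at 7.58 and 26.6 CPM, was 2-fold lower. In the survival list, 1 of 11 genes passed 2-fold in each comparison: Birc3 had 27.1 CPM in cycling and 83.4 CPM in Mki67-zero pro-B cells, and Bcl2 15.2 CPM in cycling pro-B and 6.97 CPM in Dntt-zero cycling cells, a difference short of 2-fold under both other scalings. Of 9 heat shock genes, 2 were 2-fold higher in cycling than in Mki67-zero cells (median log2 ratio 0.87), and 6 under either other scaling. Heavy chain variable segments summed to 27.1 CPM in cycling pro-B, 46.5 CPM in Mki67-zero pro-B and 8.38 CPM in Dntt-zero cycling cells, against 0.539 CPM in Cd3e-positive cells. Ighg2b transcripts lay in few cells: 193 of 211 members had none and 1 member had 29 UMIs.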
